A study of Mus musculus with 10 samples.

Results

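The genes of the translation elongation factors and of a few other transcripts with a terminal oligopyrimidine (TOP) tract were followed in mouse regulatory T cells (Treg, the Foxp3-dependent CD4 T cells that restrain immune responses): the elongation factor genes Eef1a1, Eef1b2, Eef1d, Eef1g and Eef2, and Tpt1, Npm1, Pabpc1, Naca and Gas5. They were picked by gene name, and all 10 members were found among the 32767 genes of each table. The list was drawn up with earlier results on these libraries known, the difference between the groups included, so that difference is given as a description and without a test. RNA was sequenced from Treg sorted by YFP out of spleen and lymph nodes of C57BL/6 mice. The dKO group (2 libraries) came from Foxp3cre/wt Tcf7fl/fl Lef1fl/fl mice, in which the related transcription factor genes Tcf7 and Lef1 carry loxP sites. The WT group (2 libraries) came from Foxp3cre/wt Tcf7wt/wt Lef1wt/wt mice, so both groups carry the same Foxp3-driven cre on 1 allele. Foxp3 lies on the X chromosome, so in such heterozygous females some Treg use the allele without cre, and the YFP gate leaves them out. The labels give neither the ages nor whether animals were pooled or replicates came from separate animals.

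Elongation of a protein chain needs eEF1A, which brings each charged tRNA to the ribosome, the eEF1B complex, which recharges eEF1A with GTP, and eEF2, which moves the ribosome along the mRNA. The mRNAs of these factors and of the ribosomal proteins begin with a C followed by a run of pyrimidines, which is the TOP tract. Their translation is tied to growth signals through the kinase mTOR and the RNA-binding protein LARP1, and resting lymphocytes are known to hold them in a poorly translated store. A level of mRNA, as measured here, says nothing of how well it is translated.

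Because TOP mRNAs are defined by their first bases, the annotated starts were searched for short pyrimidine motifs. RefSeq (GRCm38.p6) gave 7 promoter windows for 6 of the 10 genes: Eef1a1, Eef1b2, Eef2, Tpt1, Naca and, with a pair of starts, Gas5. Eef1d, Eef1g, Npm1 and Pabpc1 had no entry. Within 50 bases of the start on either side, CTTTC, the longer CTTTTC or instead CTCTTC was found on the transcribed strand in 4 of these 7 windows, against 19.56% of 32851 RefSeq windows. On either strand it was found in 4 of 7 windows, against 35.28% of all. None of these motifs contains another. The box TATAA stood on the transcribed strand of 2 member windows and of 6.81% of all windows, and on either strand in 3 member windows and 9.26% of all. The genes were picked with TOP tracts in view, so nothing is read from these shares. The stretches of 30 bases that hold each match on the transcribed strand are shown with the motif in capitals.
Eef1a1 (chr9:78481710-78481739, minus strand): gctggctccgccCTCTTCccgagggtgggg
Eef1a1 (chr9:78481682-78481711, minus strand): gggagaacggtaTATAAgtgcggcagtcgc
Eef1b2 (chr1:63176851-63176880, plus strand): tgcgtccgagcgCTTTCgttcaactccggc
Eef2 (chr10:81176604-81176633, plus strand): ccggcgtcgaccTATAAaaggccgggcgtt
Eef2 (chr10:81176634-81176663, plus strand): gacgtcagcggtCTCTTCcgccgcagccgc
Gas5 (chr1:161035154-161035183, plus strand): cgccatctcagcCTTTCggagctgtgcggc

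In the second Gas5 window the CTTTC motif began at the annotated start itself, at position 1. In Eef2 the CTCTTC motif began at position 16, counted from the annotated start as 1, and in Eef1b2 the CTTTC motif began at position 33. In Eef1a1 the motif began at position -3, upstream of a TATAA at position 26, so the RefSeq start lies before that box. A match is a description of the letters, and no match in the Tpt1 and Naca windows says only that these letters were not in the 50 bases searched on each side.

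Lef1 was at 71.6 and 62.8 FPKM in dKO, against 160.4 and 166.5 FPKM in WT, and Tcf7 at 316.4 and 271.5 FPKM in dKO, against 456.1 and 501.3 FPKM in WT. FPKM are fragment counts divided by transcript length and library size, so levels of different genes can be set side by side. All 6 Treg markers were present, with Foxp3 at 125.5 and 113.7 FPKM in dKO and 119.9 and 105.9 FPKM in WT. Cd4 had 187.5 and 264.5 FPKM in dKO, against 384.0 and 410.7 FPKM in WT, and Cd3e 381.8 and 363.4 FPKM in dKO, against 306.5 and 306.6 FPKM in WT. The 5 B cell markers summed to 23.5 and 24.6 FPKM in dKO, against 15.4 and 15.2 FPKM in WT. Nearly all of this was Cd79b, with 22.5 and 23.3 FPKM in dKO, against 14.1 and 14.6 FPKM in WT, while the other 4 stayed below 1 FPKM in every library. The erythroid list summed to at most 3.90 FPKM. The 6 myeloid markers summed to 3.32 and 57.4 FPKM in dKO replicates 1 and 2, against 6.21 and 2.07 FPKM in WT, so dKO replicate 2 stands apart. The 5 CD8 T and NK markers summed to 41.0 and 44.2 FPKM in dKO, against 35.7 and 21.5 FPKM in WT. With all libraries, the median log2 difference of the 9 genes with values in every library was -0.18. It was -0.23 without dKO replicate 2, -0.21 without dKO replicate 1, -0.25 without WT replicate 1 and -0.14 without WT replicate 2. The part of these markers in the results was not tested.

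The genes with a value in every library were lower in dKO than in WT, Gas5 by far the most. Eef1a1 is the exception, because both WT tables list it at 0. For the other 9, the groups did not overlap and dKO was the lower, an arrangement that 24.2% of all 10710 genes tested also showed. The 9 log2 differences, dKO minus WT on the log2(FPKM + 1) scale, ran from -0.76 for Gas5 to -0.13 for Eef1b2, with a median of -0.18, beside a median of 0.013 over all genes tested. Of the 9, only Gas5 was among the 75 genes past the threshold of limma's moderated test with Benjamini-Hochberg adjustment (0.700% of genes tested, 0.383% lower and 0.317% higher in dKO). Those 75 also hold Eef1a1, Gm26377 and mt-Co1, which passed through WT values listed at 0, so their calls are not read. Since the genes were chosen with this contrast known, nothing is read from these counts. In bulk RNA, fewer cells of a type and less RNA per cell cannot be told apart, and FPKM show only shares of a library.

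**Figure D1:**
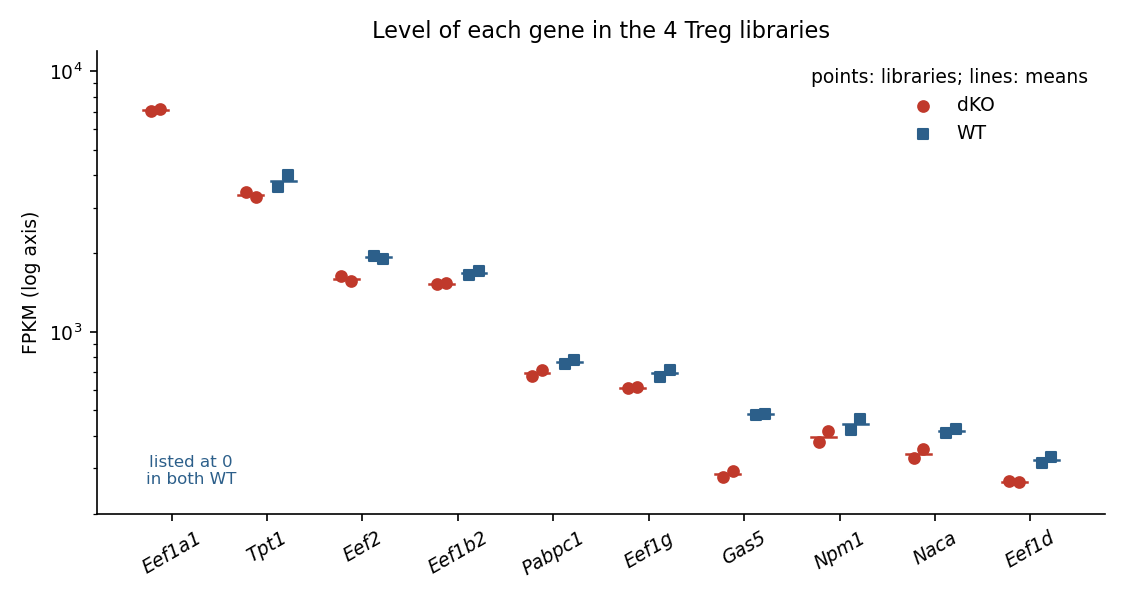
FPKM (log axis) of the 10 genes in each library, with dKO as red circles left of WT as blue squares and lines at the group means (n = 2 each). Both dKO points lie below both WT points for the 9 genes with values, and Eef1a1, listed at 0 in WT, has points only for dKO, at 7068 and 7188 FPKM.

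Eef1a1 encodes eEF1A1, the most abundant elongation factor of most cells (chromosome 9, 78478449 to 78489151, minus strand, GRCm38). It had 7068 and 7188 FPKM in dKO, ranking number 5 by mean among all genes there, and was listed at 0 in both WT libraries. A gene that every cell uses cannot be read as absent from such an entry, so the 0 is taken as a failed estimate, and no mean, fold or difference is given. Of all genes, 3 were listed at 0 in both WT libraries and above 1000 FPKM in both dKO libraries, namely Eef1a1, the mitochondrial gene mt-Co1 and Gm26377. The zeros of all 3 are treated as failed estimates. Gm26377 was listed at 118710 and 121994 FPKM in dKO, and mt-Co1 at 6204 and 6367 FPKM in dKO. No gene showed the converse. Gm26377, annotated as a miRNA of 108 bases (chromosome 9, 78478528 to 78478635), lies on the same strand inside an exon of Eef1a1, within an untranslated region.

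Rows of Eef1a1 copies did hold values in WT. The annotation has 18 genes with a transcript at least 90% identical to Eef1a1 over at least 80% of its own length, of which 6 have a row in the tables. Their FPKM summed to 26.6 and 33.5 in dKO, against 34.2 and 36.6 in WT. The most similar of them, Gm13456 at 98.56% identity, had 9.16 and 9.36 FPKM in dKO, against 12.03 and 10.997 FPKM in WT. Whether these rows received fragments of Eef1a1 itself was not tested.

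The eEF1B complex is built from eEF1B2 and eEF1D, which exchange the nucleotide on eEF1A, and from the scaffold eEF1G. Eef1b2 (chromosome 1, 63176825 to 63180486) had 1524 and 1539 FPKM in dKO, against 1647 and 1713 FPKM in WT, a log2 difference of -0.13 (SE 0.064). This was the smallest difference of the 9, and the gap between the groups, 107.7 FPKM, was wider than the distance between replicates of either group. Eef1d (chromosome 15, 75894205 to 75909556) had 266.9 and 264.5 FPKM in dKO, against 314.2 and 332.2 FPKM in WT, a log2 difference of -0.28 (SE 0.063). Eef1g (chromosome 19, 8967041 to 8978479) had 611.1 and 612.0 FPKM in dKO, against 673.9 and 712.4 FPKM in WT, a log2 difference of -0.18 (SE 0.063). In dKO the replicates of these 3 genes nearly coincided, while WT replicate 2 was the higher of the WT libraries for each.

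Ratios taken within a library show how far the 3 subunit mRNAs moved in step. The ratio of Eef1b2 to Eef1d FPKM was 5.71 and 5.82 in dKO, against 5.24 and 5.16 in WT, and that of Eef1b2 to Eef1g was 2.49 and 2.51 in dKO, against 2.44 and 2.40 in WT. Eef1d stood at 0.437 and 0.432 of Eef1g in dKO, against 0.466 and 0.466 in WT. The groups did not overlap in any of the 3 ratios, which are not independent, and Eef1d was the lower relative to both others in dKO. Such an order is frequent, since 24.2% of all single genes tested were lower and 26.6% higher in dKO without overlap. The share among other gene pairs was not counted, so nothing is read from it. Eef1d overlaps Naprt on the same strand over 277 bases, where Naprt itself had at most 1.54 FPKM. Eef1b2 overlaps the antisense gene Ndufs1 by 9 bases, and whether the counting used strand is not given in the sources used here.

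Eef2 encodes the factor that translocates the ribosome (chromosome 10, 81176631 to 81182498). It had 1637 and 1569 FPKM in dKO, against 1950 and 1910 FPKM in WT, a log2 difference of -0.27 (SE 0.065). The groups stood 273.2 FPKM apart at their nearest, and replicates 1 and 2 differed by 0.061 in dKO and 0.030 in WT on the log2 scale. Eef2k, the kinase that switches eEF2 off, had 13.8 and 18.3 FPKM in dKO, against 16.0 and 11.8 FPKM in WT, with overlapping groups.

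**Figure D2:**
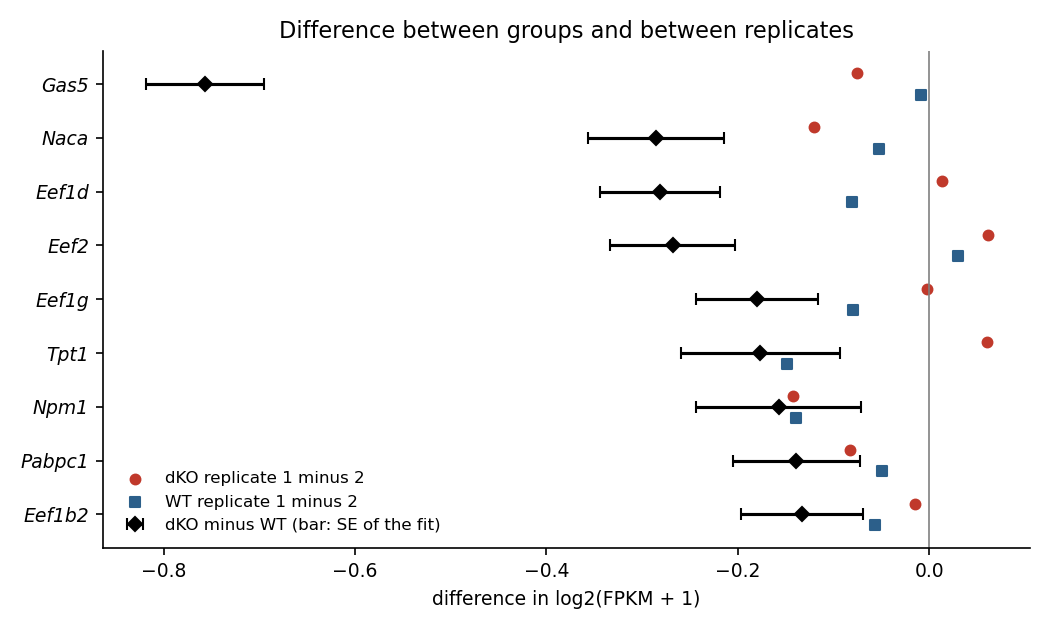
Differences in log2(FPKM + 1) for the 9 genes with values, ordered by size. Black diamonds are dKO minus WT with the SE of the fit, red circles replicate 1 minus 2 within dKO and blue squares the same within WT. The difference between groups was larger than both differences between replicates for all 9 genes. It was so by little for Npm1 (-0.16, beside -0.14 and -0.14) and Tpt1 (-0.18, beside 0.06 in dKO and -0.15 in WT). The share of all genes tested that do so was not counted, so nothing is read from this.

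Tpt1 encodes the translationally controlled tumour protein, a small and abundant protein whose mRNA is a classic TOP mRNA (chromosome 14, 75845093 to 75848525). It was the highest of the 9, with 3429 and 3288 FPKM in dKO, against 3605 and 3995 FPKM in WT, a log2 difference of -0.18 (SE 0.083). WT replicate 2 set much of this, since without it the log2 difference was -0.10. A processed copy, Tpt1-ps3, has a stretch with 100% identity to Tpt1 and was at 91.5 and 89.9 FPKM in dKO, against 101.0 and 110.3 FPKM in WT. Fragments that such copies share with Tpt1 make the values of both uncertain.

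Pabpc1 encodes the main cytoplasmic poly(A)-binding protein, which links the mRNA tail to the initiation complex (chromosome 15, 36595661 to 36609668). It had 675.6 and 715.7 FPKM in dKO, against 752.6 and 779.0 FPKM in WT, a log2 difference of -0.14 (SE 0.066). Npm1 encodes nucleophosmin, a nucleolar chaperone of ribosome assembly (chromosome 11, 33152287 to 33163206). It had 376.6 and 415.8 FPKM in dKO, against 420.6 and 463.2 FPKM in WT, and the gap between the groups was only 4.81 FPKM. Its log2 difference of -0.16 (SE 0.086) was -0.086 without dKO replicate 1 and -0.088 without WT replicate 2, so single libraries decide its size. Set against nucleolin, Ncl, another nucleolar protein, the FPKM ratio of Npm1 was 1.79 and 1.71 in dKO, against 2.05 and 2.04 in WT. The ratio of Pabpc1 to the related gene Pabpc4 overlapped between the groups, with 37.3 and 35.6 in dKO and 32.2 and 42.7 in WT. The share of other gene pairs without overlap was not counted, so nothing is read from these ratios.

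Naca encodes the alpha subunit of the nascent polypeptide-associated complex, which meets new chains as they leave the ribosome (chromosome 10, 128035575 to 128048637). It had 326.9 and 355.5 FPKM in dKO, against 408.2 and 423.3 FPKM in WT, a log2 difference of -0.29 (SE 0.071) and the largest after Gas5. Its partner subunit Btf3 had 234.0 and 251.0 FPKM in dKO, against 259.6 and 269.8 FPKM in WT, with a log2 difference of -0.13 (SE 0.068, limma adjusted p = 0.41). The Naca to Btf3 ratio was thus 1.40 and 1.42 in dKO, against 1.57 and 1.57 in WT. Here too the share among other gene pairs was not counted, so nothing is read from it. A copy of Naca with 99.84% identity, Gm6863, was at 8.63 and 9.46 FPKM in dKO, against 9.62 and 12.8 FPKM in WT.

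Gas5 is a long non-coding RNA, first described in mouse fibroblasts at growth arrest, whose introns carry small nucleolar RNAs that guide rRNA modification (chromosome 1, 161034422 to 161038539). Its spliced RNA starts with a TOP tract, is read by ribosomes over a short frame and is then removed by nonsense-mediated decay. Gas5 had 277.6 and 292.5 FPKM in dKO, against 480.7 and 483.7 FPKM in WT, a log2 difference of -0.76 (SE 0.062). In percent of the WT mean, the difference was -40.9% for Gas5 and between -17.9% and -8.83% for the other 8 genes. The gap between the groups was 188.2 FPKM, and replicates 1 and 2 differed by -0.075 in dKO and -0.0089 in WT on the log2 scale. No other annotated gene met the criterion for a near-identical copy of Gas5. For Eef1d, Eef1g, Eef2, Npm1 and Pabpc1, copies in the tables summed to at most 14.9 FPKM in any library. The antisense gene Zbtb37 overlaps 428 bases of Gas5 and had 6.97 and 6.28 FPKM in dKO, against 7.76 and 6.51 FPKM in WT.

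The call of Gas5 rests on few libraries. It missed the threshold without WT replicate 1, without WT replicate 2 and without dKO replicate 1, and held without dKO replicate 2, while the log2 difference stayed between -0.79 and -0.72. The number of genes called over the whole table moved in the same fits, with 21 genes without WT replicate 1, 14 without WT replicate 2, 42 without dKO replicate 1 and 136 without dKO replicate 2, against 75 with all libraries.

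The order of the 9 levels was the same in replicates of a group. In both groups Tpt1 led, followed by Eef2, Eef1b2, Pabpc1 and Eef1g, and Eef1d came last. Gas5 alone moved by more than 1 place, standing 8th in dKO and 6th in WT. Neighbours in the order did not overlap in FPKM between their replicates except Npm1 and Naca in WT. Together the 9 genes summed to 9124 and 9052 FPKM in dKO, against 10252 and 10811 FPKM in WT.

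Other mRNAs known to carry TOP tracts had a similar median. Of 11 such genes, none passed the limma threshold, 9 were lower in dKO with no overlap between the groups (24.2% of all genes tested) and the median log2 difference was -0.18, beside 0.013 over all genes. At an unadjusted p under 0.05, 5 were lower and 1 was higher, beside 924 lower and 934 higher of all 10710 genes. The counts at an unadjusted p given for the lists below stand beside the same background. Gnb2l1, which encodes the ribosome-bound scaffold RACK1, had 2645 and 2468 FPKM in dKO, against 2856 and 2941 FPKM in WT (log2 difference -0.18, adjusted p = 0.30). Eif3h, a subunit of initiation factor eIF3, had 272.8 and 276.9 FPKM in dKO, against 330.0 and 334.8 FPKM in WT (-0.27, adjusted p = 0.14). Fau, which encodes a ubiquitin-like protein fused to ribosomal protein S30, had 1532 and 1337 FPKM in dKO, against 1646 and 1576 FPKM in WT (-0.17, adjusted p = 0.40). Vim, the gene of the filament protein vimentin, lay the other way, with 509.3 and 565.4 FPKM in dKO and 461.5 and 391.0 FPKM in WT (0.34, adjusted p = 0.23).

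**Figure D3:**
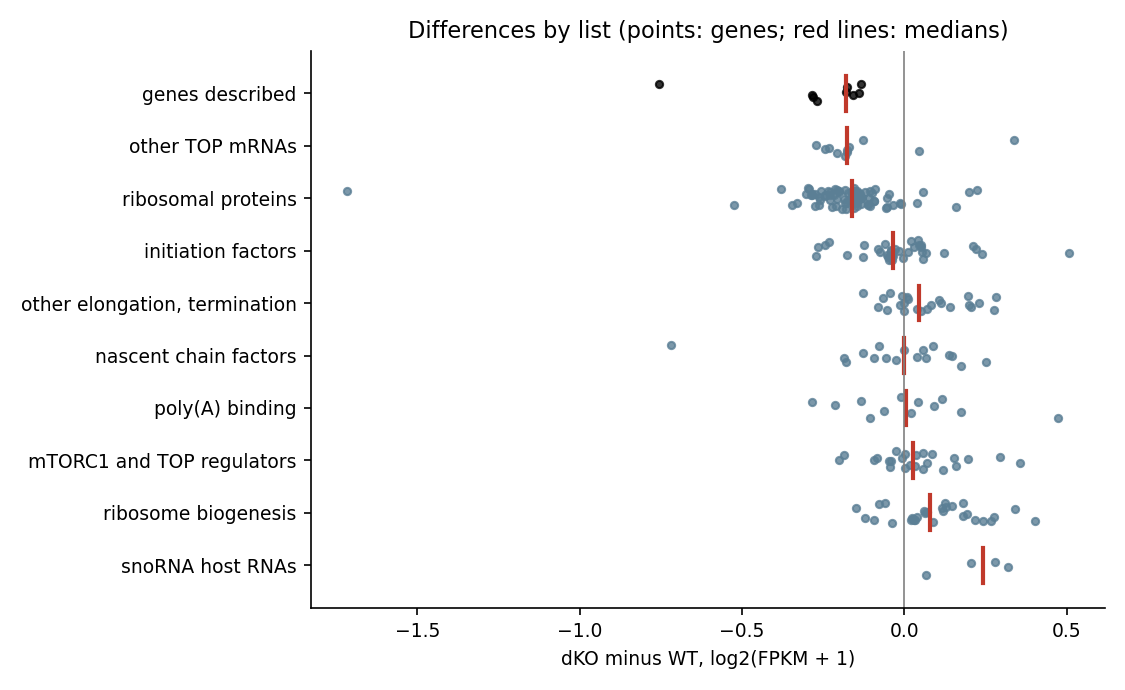
Log2 differences, dKO minus WT on the log2(FPKM + 1) scale, for genes above 0 in every library, by list. Each point is a gene and each red line a median. The medians of the genes described, the other TOP mRNAs and the ribosomal proteins were -0.18, -0.18 and -0.16, those of the lists from initiation factors to ribosome biogenesis lay between -0.036 and 0.078, and that of the 4 snoRNA host RNAs drawn was 0.24.

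Cytoplasmic ribosomal protein genes, the largest family of TOP mRNAs, had a median log2 difference of -0.16 over 85 genes tested, with 80 negative and 68 whose groups did not overlap with dKO lower (24.2% of all genes tested). At an unadjusted p under 0.05, 26 were lower and 0 higher, beside 924 lower and 934 higher of all 10710 genes tested. Among them Rpl34 fell to 605.2 and 589.7 FPKM in dKO, against 1892 and 2039 FPKM in WT (log2 difference -1.72, SE 0.070, limma adjusted p = 0.0033), and was the only 1 called. Its call held with each library left out in turn, and was lost when no filter on low values was used (adjusted p = 0.081). Where Rpl34 lies relative to the floxed Lef1 gene was not looked up, and an effect of lying near it was not tested. Its difference is thus not read as one of the family. Many ribosomal protein genes have near-identical copies, so their values are uncertain. Rpl13a, at 13198 and 11286 FPKM in dKO, against 14668 and 14220 FPKM in WT, had the highest level (-0.24, adjusted p = 0.33).

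Other genes at such levels were spread on both sides of 0. Among 209 genes with a mean of at least 250 FPKM, with the 10 genes and ribosomal protein genes left out, the median log2 difference was -0.0069, with 107 negative and 102 positive. The groups did not overlap, with dKO the lower, for 61 of them, or 29.2%. The 250 FPKM bound was chosen after the values were seen, just under the lowest mean of the 9 genes, 294 FPKM for Eef1d.

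**Figure D4:**
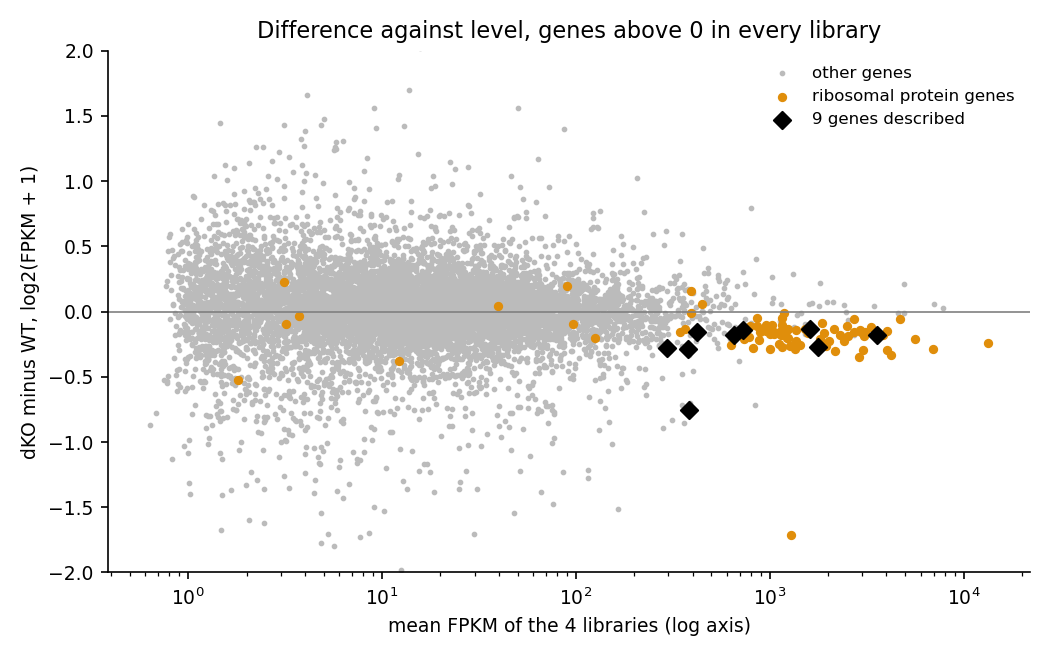
Log2 difference, dKO minus WT on the log2(FPKM + 1) scale, against mean FPKM of the 4 libraries (log axis) for 10586 genes above 0 in every library; 14 genes lie outside the vertical range of 2. The 9 genes described (black) and most ribosomal protein genes (orange) lie below 0, while other genes at the same levels lie on both sides.

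Of 37 tested initiation factor genes, which include 4 of the TOP list, 22 had negative and 15 positive differences, with a median of -0.036, and none passed; 5 lower and 3 higher had an unadjusted p under 0.05. Eif4g2, a relative of the scaffold eIF4G, had 442.7 and 497.9 FPKM in dKO, against 514.1 and 511.7 FPKM in WT (-0.13, adjusted p = 0.47). Eif1, which guards start codon choice, overlapped between the groups, with 289.7 and 336.4 FPKM in dKO and 300.7 and 338.1 FPKM in WT (-0.030, adjusted p = 0.91). Eif2b4, a subunit of the exchange factor of eIF2 and the member with the largest positive difference, had 57.8 and 61.9 FPKM in dKO, against 43.8 and 40.0 FPKM in WT (0.51, SE 0.081, adjusted p = 0.097).

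Among the remaining factors of elongation and termination, no gene was called. Of 24 tested, 16 were positive and 8 negative, with a median of 0.046, none passed and 1, higher, had an unadjusted p under 0.05. Eif5a, which rescues stalled ribosomes, had 394.7 and 450.0 FPKM in dKO, against 373.1 and 391.6 FPKM in WT (0.14, adjusted p = 0.47). Vars, the valyl-tRNA synthetase bound to the eEF1 complex, had 88.3 and 78.8 FPKM in dKO, against 86.3 and 74.9 FPKM in WT (0.053, adjusted p = 0.83), and the release factor gene Gspt1 had 65.4 and 77.8 FPKM in dKO, against 69.3 and 72.3 FPKM in WT (0.010, adjusted p = 0.97). Eef1a2, the muscle and neuron relative of Eef1a1, was listed at 0 in all 4 libraries.

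Genes that act on poly(A) tails, on nascent chains and on TOP mRNA translation were centred near 0. The 12 tested poly(A) genes had a median of 0.0055, with none passing and 1 in each direction at an unadjusted p under 0.05; Pabpn1, the nuclear poly(A)-binding protein, had 115.5 and 114.8 FPKM in dKO, against 100.2 and 103.6 FPKM in WT (0.17, adjusted p = 0.25). The 17 nascent chain genes had a median of -0.0025, with none passing and 1 in each direction at an unadjusted p under 0.05. Hspa8, a chaperone that also acts on finished proteins, was their far end, with 543.6 and 734.9 FPKM in dKO, against 1168 and 926.6 FPKM in WT (-0.72, SE 0.19, adjusted p = 0.18). The 24 regulators, which include mTOR and LARP1, had a median of 0.025, with none passing and 1 in each direction at an unadjusted p under 0.05. The RNA-binding protein genes Cnbp and Ssb, both described as binding TOP mRNAs, had log2 differences of 0.085 and 0.15 (adjusted p = 0.60 and 0.29), and Pdcd4, an inhibitor of eIF4A, one of 0.071 (adjusted p = 0.60).

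Most ribosome biogenesis genes had positive differences. Of 30 tested, 24 were positive and 6 negative, with a median of 0.078, and 13 were higher in dKO with no overlap between the groups (26.6% of all genes tested). None passed, and 3, all higher, had an unadjusted p under 0.05. Ncl had 210.8 and 243.2 FPKM in dKO, against 205.1 and 226.9 FPKM in WT (0.070, adjusted p = 0.76), and Nop56, a core protein of box C/D small nucleolar RNPs, 122.2 and 105.1 FPKM in dKO, against 99.0 and 100.6 FPKM in WT (0.18, adjusted p = 0.38). Of 18 other snoRNA host RNAs listed, 5 were matched and tested, among which Snhg9 was listed at 0 in WT replicate 2. None passed, and Snhg20, higher, had an unadjusted p under 0.05. Snhg12, the most abundant, had 43.4 and 30.5 FPKM in dKO, against 35.9 and 33.5 FPKM in WT (0.068, adjusted p = 0.87), and Snhg3 had 12.5 and 15.1 FPKM in dKO, against 12.2 and 10.2 FPKM in WT (0.28, adjusted p = 0.38). The 4 with a value in every library had positive differences, whereas that of Gas5 was negative; the difference between them was not tested.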

How the data were processed

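The authors deposited 1 table of FPKM per library. STAR and Cuffdiff with GRCm38 were used, per the submitters' processing notes; no version, annotation, strand setting or library scaling was given in the sources used here. Libraries were made with a stranded mRNA kit, per the labels' protocols. The 4 WT and dKO libraries were used, and the 6 libraries of sorted subsets were not used here. Absolute depth is unknown; from the most frequent ratio among values under 0.3 FPKM, shared by only 16 to 22 genes, depth relative to WT replicate 1 was 67.7% in dKO replicate 1, 70.9% in dKO replicate 2 and 72.4% in WT replicate 2. Between 10435 and 10678 genes per library reached 1 FPKM.

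limma 3.58.1 (R 4.3.3) was fitted to log2(FPKM + 1) of the 10710 genes that reached 1 FPKM in 2 or more libraries, with a variance trend, 2 residual and 2.85 prior degrees of freedom, a two-sided test and adjustment by Benjamini-Hochberg at 0.05. All 10 members passed this filter, Eef1a1 through its dKO values. Fold changes on this scale understate those of low genes. No label says that replicates are separate animals, so a p-value reflects only how these libraries vary, perhaps technically. The fit was tested on simulated data with changes larger than those of the genes described, so that test does not cover differences of their size. The 27 gene names stored as dates were restored by identifier. Coordinates are GENCODE vM21 (GRCm38). Copies were sought with blastn 2.17.0 among GENCODE transcripts, at 90% identity over 80% of the copy and at least 200 bases. Members and lists were chosen with earlier results of these data known. Named were all members and, of each other list, up to 4 called genes and the 3 with the highest mean; others named for an end of a range, as a partner or for an overlap were chosen after their values were seen. A gene that this rule names is not reported here. Alternatives were other pseudocounts, filters and scalings, leaving out each library, a replicate block and dropping genes listed at 0.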

Additional observations from a re-analysis of the deposited data

How the results depend on the processing

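Under the 13 alternatives, all 117 differences of the 9 genes with values stayed negative, and 116 moved by less than the spread between replicates. Much of this was fixed in advance, so nothing is read from it. Leaving out 1 library cannot reverse groups that do not overlap, nor move a difference by more than that spread. Filters and replicate blocks leave each difference unchanged. The median log2 difference of the 9 genes was -0.18, -0.23 with quantile normalization and between -0.25 and -0.14 when 1 library was left out. The whole-table fit called 75 genes (34 higher and 41 lower), and separate fits called 6 (6 and 0) without a filter, 53 (27 and 26) with a mean of at least 5 FPKM and 117 (45 and 72) without genes listed at 0; leaving out 1 library gave 14 to 136 (9 to 36 higher, 2 to 100 lower). The cause was not tested. Among the alternatives that kept all 4 libraries, the number of members called was 0 without a filter and under the replicate block. Replicate numbers are shared between the groups, but no label says that they pair the libraries; the replicate block gave 21 calls (12 higher and 9 lower). The replicate 1 minus 2 differences of dKO and WT had a correlation of -0.16 across 10586 genes, and a crossed replicate block, added after the data were seen, gave 162 calls (71 higher and 91 lower), 1 of them in the lists other than the ribosomal proteins. In all other alternatives no gene of those lists was called, while Rpl34 was called in all but the fit without a filter. The ribosomal protein median of -0.16 was -0.21 without WT replicate 1 and -0.11 without WT replicate 2. That of the other TOP mRNAs, -0.18, was -0.14 with quantile normalization. Medians near 0 also moved with single libraries, some by less than the spread between replicates. Without WT replicate 2 they were 0.017 for initiation (-0.036 with all libraries), 0.064 for nascent chains (-0.0025), 0.058 for TOP regulators (0.025), 0.012 for poly(A) genes (0.0055) and 0.13 for ribosome biogenesis (0.078). For snoRNA hosts the median was then 0.16 (0.28, or 0.24 without Snhg9, which was listed at 0 in WT replicate 2). Without WT replicate 1 the medians were 0.031 for nascent chains, 0.046 for poly(A) genes and 0.052 for ribosome biogenesis. Without dKO replicate 1 they were 0.070 for other elongation factors (0.046), 0.052 for poly(A) genes, -0.025 for initiation and -0.0012 for nascent chains, and without dKO replicate 2 they were 0.021 for other elongation factors, 0.050 for TOP regulators and -0.0041 for nascent chains. With no counts deposited in the tables used, counting error could not be given.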

Other observations

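Small nucleolar RNA genes within the members gave few values. Gas5 holds 9 with a row in the tables, of which 8 were listed at 0 in all 4 libraries, and Gm22357 had 54.3 FPKM in dKO replicate 2 and was listed at 0 elsewhere. Within Eef1b2, Gm26457 had 782.2 and 938.3 FPKM in dKO and 0 and 360.9 FPKM in WT, and Snora41 had 25.4 and 15.5 FPKM in dKO, against 17.2 and 7.82 FPKM in WT, with overlapping groups. Snora31, within Tpt1, had 36.5 and 33.3 FPKM in dKO, against 24.7 and 25.3 FPKM in WT, while Tpt1 was lower in dKO. Snord37, within Eef2, was listed at 0 in all 4 libraries. They are given as values only.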
